A study of Mus musculus with 6 samples.

Results

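The genes described here are 10 antiviral effectors that interferon switches on in most mouse cells: Ifit1, Ifit2, Ifit3, Ifit3b, Mx1, Mx2, Rsad2, Bst2, Ifi44 and Ifi35. All 10 were found by symbol among the 55416 genes of the expression table. They were chosen from earlier results of the same siPKM2 against siNC contrast, so their differences between the groups are a description. No p is given for them, and the calls below, from fits across all genes, are no independent evidence. The libraries were RNA-seq of primary chondrocytes, the cells that make cartilage matrix, taken from neonatal mouse knee joints according to the labels. The study's methods name adult mice instead. Both groups were cultured in DMEM/F12 with serum and transfected by the same lipid reagent. The siNC cells, labelled WT, received a scrambled control siRNA (n = 3 libraries), and the siPKM2 cells received an siRNA against Pkm2, a glycolytic enzyme (n = 3 libraries). The titles of all 3 knockdown libraries read siPKM2, while the genotype labels of replicates 2 and 3 read PKM3 and PKM4 knockdown, and the groups here follow the titles. The paper states in general that its experiments were independent and at least in triplicate, without naming these libraries. Neither the labels nor the methods say whether replicates were separate cultures or animals, so the spread between them may be technical.

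Type I interferons bind a receptor that activates the JAK1 and TYK2 kinases. A complex of transcription factors that holds IRF9 then binds interferon-stimulated response elements in promoters and turns on antiviral genes. IFIT proteins bind foreign or incompletely capped RNA and block its translation, MX proteins are dynamin-like GTPases that trap viral components, viperin (Rsad2) makes a chain-terminating nucleotide, and tetherin (Bst2) holds budding virions on the cell surface.

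Total counts lay between 22317065 and 25691096 per library, and 15269 genes were tested. Pkm, the targeted gene, stood at 2335, 2746 and 1674 CPM in siNC 1, 2 and 3 and at 336, 541 and 309 CPM in siPKM2 1, 2 and 3, with no overlap. CPM is the count divided by the library's total and rescaled (cpm in edgeR), with TMM factors that align the bulk of genes between libraries. The replicate 2 libraries stood apart in both groups. The summed level of 14 chondrocyte markers, led by Col2a1, was 58470, 11860 and 56950 CPM in siNC 1, 2 and 3 and 50740, 16600 and 49340 CPM in siPKM2 1, 2 and 3. Cartilage markers were therefore present in all 6 libraries and lowest in both replicate 2 libraries. Same-numbered libraries of the groups deviated together, so each siPKM2 library was also compared with the siNC library of its number.

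The promoters are shown because 5 of the 8 genes with a RefSeq promoter window (250 bases before the start to 50 after it, GRCm38.p6) held the core of the interferon-stimulated response element. The motif searched was GAAA, any 2 bases and GAAA again, on either strand and with overlapping matches counted. Of all 27025 genes with a window, 3.99% held it. Capitals mark the matches, each stretch runs 5′ to 3′ on the gene's own strand, and none overlapped an annotated exon. The stretches lie at chr19:34640765-34640833 on the plus strand for Ifit1, chr19:34583353-34583436 on the plus strand for Ifit3, chr12:26456543-26456592 on the minus strand for Rsad2 and chr8:71537567-71537622 on the minus strand for Bst2.
Ifit1: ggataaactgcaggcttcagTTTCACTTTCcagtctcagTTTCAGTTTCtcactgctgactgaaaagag
Ifit3: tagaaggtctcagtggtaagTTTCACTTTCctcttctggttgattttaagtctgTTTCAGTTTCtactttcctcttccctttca
Rsad2: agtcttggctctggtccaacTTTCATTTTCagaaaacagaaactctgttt
Bst2: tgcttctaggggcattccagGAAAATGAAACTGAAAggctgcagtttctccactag
Ifit1 and Ifit3 each held a pair of cores with the same letters, and Ifit3b carried the Ifit3 stretch letter for letter at chr19:34607749-34607832 on the plus strand. In Bst2 the pair of cores overlapped. The windows of Ifit2, Ifi44 and Ifi35 held no such match, which says only that these letters are not in those windows. A STAT dimer site, searched as TTCNNNGAA in the same way, was found in Bst2, Ifi35 and Ifit2, 3 of 8 genes, against 9.55% of all genes. A match is a description of letters and shows no binding.

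**Figure D1:**
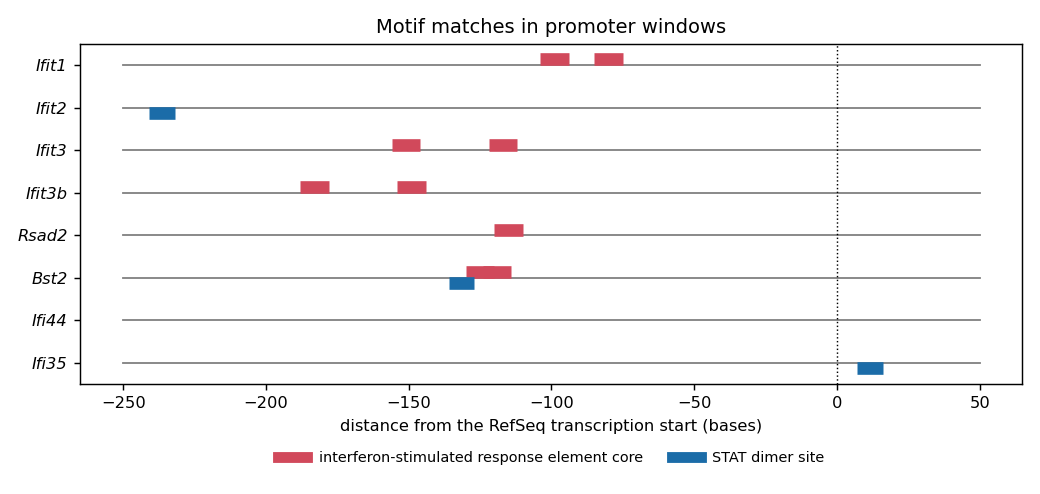
Motif matches in the promoter windows of the 8 genes with a RefSeq window, drawn by distance in bases from the transcription start (0). Red blocks are interferon-stimulated response element cores and blue blocks are STAT dimer sites. The cores lie between 188 and 76 bases before the start, and Ifi44 shows no match.

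Ifit3 and Ifit3b are near-identical copies, so their counts needed care. Their coding sequences (GENCODE M21, GRCm38) were identical at 1198 of 1209 bases (99.1%), with 1 run of 329 identical bases. Coding bases 199 to 288 are shown because 4 of the 11 differences, in capitals, fall there.
Ifit3: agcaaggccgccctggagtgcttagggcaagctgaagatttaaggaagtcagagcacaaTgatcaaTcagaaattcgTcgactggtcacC
Ifit3b: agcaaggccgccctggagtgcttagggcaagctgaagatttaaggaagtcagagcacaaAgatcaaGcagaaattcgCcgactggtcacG
The deposited estimated counts of Ifit3 and Ifit3b were fractional in 5 of 6 libraries each, and their sum was whole, within 0.011 of a count, in 4 of those 5. The split between the copies is therefore uncertain, and Ifit3 took between 73.1% and 84.8% of the sum. Mx1 and Mx2 were fractional in 2 libraries, where their sum was whole. Their coding sequences were identical at 80.3% of aligned bases.

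The IFIT genes lie side by side on chromosome 19 (GRCm38), where Ifit2, Ifit3, Ifit3b, Ifit1 and the relatives Ifit1bl1 and Ifit1bl2 span 99316 bases. Ifit1, the sensor of incompletely capped RNA (chr19:34640871-34650009, plus strand), had 2.72, 208 and 7.22 CPM in siNC 1, 2 and 3 and 181, 511 and 169 CPM in siPKM2 1, 2 and 3. The siNC 2 library lay above 2 of the 3 siPKM2 libraries, so the groups overlapped, while siNC 1 and 3 lay far below all siPKM2 libraries. Within pairs 1, 2 and 3, Ifit1 was 66.4-fold, 2.46-fold and 23.4-fold higher in siPKM2. In bulk RNA, fewer cells of a type and less RNA per cell cannot be told apart.

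Ifit3, another gene of the IFIT family (chr19:34583531-34588731), stood at 10.3, 410 and 14.7 CPM in siNC and at 209, 612 and 172 CPM in siPKM2. Its copy Ifit3b (chr19:34607970-34613401) stood at 3.003, 92.7 and 5.39 CPM in siNC and at 56.1, 109 and 39.7 CPM in siPKM2. Both had the Ifit1 pattern, with siNC 2 between siPKM2 2 and the other siPKM2 libraries. Ifit3 was 20.3-fold, 1.49-fold and 11.7-fold higher in siPKM2 within pairs 1, 2 and 3. Summed, so that the split between the copies does not matter, Ifit3 and Ifit3b had 332, 12437 and 458 counts in siNC. In siPKM2 they had 5695, 18537 and 4633.63. The siPKM2 3 sum was not whole, so reads shared outside the pair may remain there.

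Ifit2, an IFIT that binds AU-rich RNA (chr19:34550694-34576419), differed from its neighbours in size. It had 19.7, 40.3 and 14.5 CPM in siNC and 34.5, 70.0 and 30.2 CPM in siPKM2. Its folds within pairs were 1.75, 1.74 and 2.08, the most even of the 10 genes. The siNC 2 library was again above siPKM2 1 and 3, but by little.

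The MX genes lie on chromosome 16, 72400 bases apart. Mx1, the nuclear GTPase of mouse (chr16:97447035-97462907, minus strand), had 0.120, 10.6 and 0.482 CPM in siNC and 2.38, 39.3 and 4.07 CPM in siPKM2. Mx2 (chr16:97535308-97560900, plus strand), which the annotation lists as a polymorphic pseudogene, had 0.240, 22.4 and 0.613 CPM in siNC and 10.4, 38.1 and 11.3 CPM in siPKM2. These were among the lowest counts of the set. The siNC 1 library held 3 counts of Mx1 against 51 in siPKM2 1, a ratio of 19.8 with an exact 95% counting interval of 6.4 to 99.2. For Mx2 it held 6 against 223, a ratio of 43.3 with an interval of 19.6 to 119. Such intervals cover counting error only. In pair 2 the ratios were 3.73 for Mx1, the highest of the 10 genes in that pair, and 1.70 for Mx2.

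Rsad2 (chr12:26442746-26456452, minus strand) spanned the widest range. It was nearly silent in siNC 1 and 3, with 0.240 and 0.350 CPM, and stood at 155 CPM in siNC 2. The siPKM2 libraries held 36.0, 262 and 29.7 CPM. The siNC 2 level was 524-fold above the mean of siNC 1 and 3 and also above siPKM2 1 and 3. With only 6 and 8 counts in siNC 1 and 3, the pair ratios of Rsad2 were 150 (exact 95% interval 68.6 to 410) and 84.8 (42.8 to 197), while pair 2 gave 1.69.

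Bst2 (chr8:71534255-71537456, minus strand) was the most abundant member per length. Its TPM, which corrects for transcript length, was 31.8, 855 and 39.4 in siNC and 853, 2088 and 624 in siPKM2. In CPM it stood at 12.7, 285 and 13.3 in siNC and at 320, 721 and 223 in siPKM2. The siPKM2 1 library exceeded siNC 2 here, the only such case among the 10 genes, while siPKM2 3 did not. Bst2 was 25.2-fold, 2.53-fold and 16.8-fold higher within pairs 1, 2 and 3.

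Ifi44, a cytoplasmic interferon-induced protein (chr3:151730922-151749960, minus strand), had 4.08, 253 and 4.90 CPM in siNC and 133, 394.5 and 88.1 CPM in siPKM2. Ifi35, a leucine zipper protein that pairs with Nmi (chr11:101448407-101458698, plus strand), had 11.1, 57.0 and 8.76 CPM in siNC and 54.7, 103 and 48.0 CPM in siPKM2. Ifi44 went with the IFIT genes in shape, and Ifi35 had a narrower range. In Ifi35 the levels of siPKM2 1, siPKM2 3 and siNC 2 lay close together. The folds within pairs 1, 2 and 3 were 32.6, 1.56 and 18.0 for Ifi44 and 4.92, 1.81 and 5.48 for Ifi35.

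**Figure D2:**
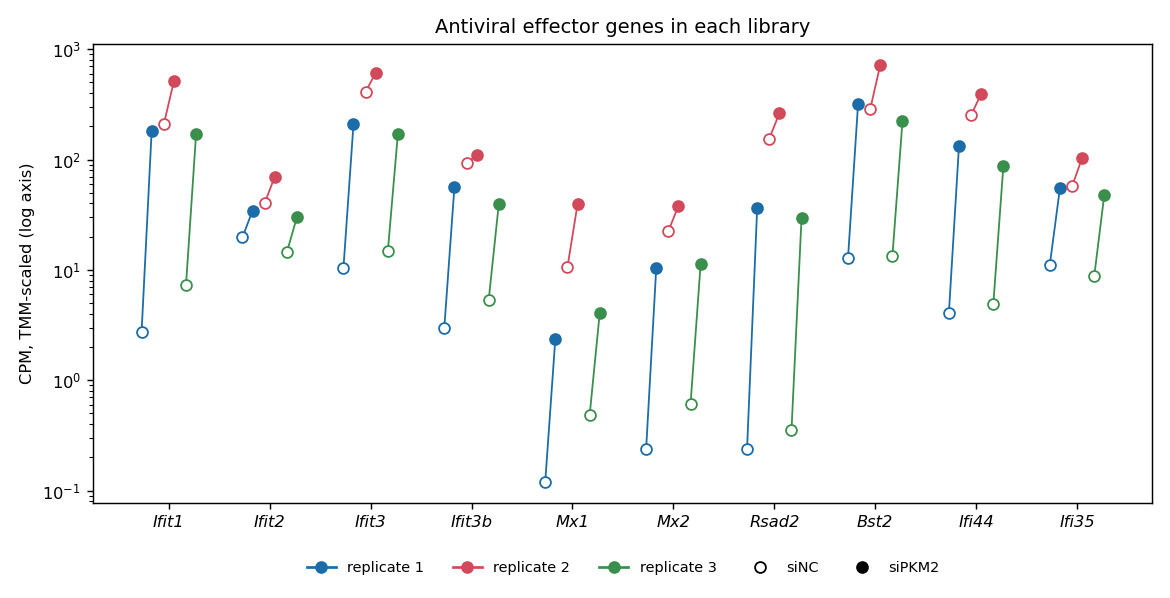
CPM of each of the 10 genes on a log axis, open points for siNC and filled points for siPKM2, with a line joining the libraries of 1 replicate number. Every line rises from siNC to siPKM2, and the replicate 2 lines (red) start high and rise least, as in Rsad2 from 155 to 262 CPM.

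The replicate 2 libraries led the 10 genes in both groups. The siPKM2 2 library was highest for 10 of 10 genes, and siNC 2 was the highest siNC library for 10 of 10. It lay above siPKM2 1 for 9 genes and above siPKM2 3 for all 10. Both siPKM2 1 and siPKM2 3 lay above siNC 1 and 3 for 10 of 10 genes. In terms of size, siPKM2 1 reached between 22.5% (Mx1) and 112% (Bst2) of the siNC 2 level, and siPKM2 3 between 19.2% (Rsad2) and 84.2% (Ifi35).

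Summed TPM of the 10 genes was 70.4, 1879 and 88.5 in siNC 1, 2 and 3 and 1403, 3734 and 1096 in siPKM2 1, 2 and 3. Bst2 led in every library and made up between 44.5% and 60.8% of that sum, and Ifit3 was second by TPM in all but siNC 1, where Ifi35 was. Below these, Ifit1 came next by TPM in every siPKM2 library, while in siNC its rank changed between libraries. The order of Ifi44 and Ifi35 below it differed between siPKM2 libraries. The group means overlapped within their SDs, which include the high replicate 2 library. In siPKM2, Ifit1 had 182 ± 129 TPM, Ifi44 125 ± 99.7 and Ifi35 92.5 ± 43.5 (SD, n = 3). Rsad2 was last by TPM in siNC 1 and 3 and mid-range by rank in siPKM2 2. Mx1 was last in the other 4 libraries.

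Differences within pairs were uneven. The median fold over the 10 genes was 22.75 in pair 1, 1.72 in pair 2 and 14.25 in pair 3. Pair 2 gave the smallest fold for 10 of 10 genes, and pair 1 the largest for 8 of 10. The exceptions were Ifit2 and Ifi35, whose largest fold was in pair 3. Across the 6 libraries, log2 CPM of any 2 members correlated with Pearson r from 0.871 to 0.999 (median 0.98 over 45 pairs), a description over points that share libraries and replicate numbers.

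In the fit across all genes, edgeR's quasi-likelihood test without regard to replicate numbers, a gene was called at a fold over 2 with an adjusted p under 0.05. No member was called, and 0% of the 15269 genes tested were called, in either direction. At an unadjusted p under 0.05 no member was counted, against 17.6% of all genes and 8.43% in the higher direction. The log2 fold changes of the members were positive in 10 of 10, against 48.1% of all genes, with a median of 1.30 against -0.02 over all genes. They ran from 0.85 ± 0.48 (SE) for Ifit2 to 2.04 ± 1.67 for Mx1, and none exceeded 2 standard errors.

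With the replicate number as a block, Ifit1, Ifi35, Mx1 and Bst2 were called, 4 of 10 members. The share over all genes was 5.83%, and 2.65% in the higher direction. Without the threshold on the fold Ifit2 was added, 5 of 10 against 23.1% of all genes and 12.3% in the higher direction. The log2 fold changes with the block were 3.91 ± 1.00 for Ifit1, 3.61 ± 1.25 for Rsad2, 3.38 ± 0.72 for Bst2 and 3.26 ± 0.96 for Ifi44. Further down stood Ifit3 at 2.86 ± 0.80, Mx2 at 2.72 ± 0.84, Mx1 at 2.55 ± 0.38, Ifit3b at 2.33 ± 0.79, Ifi35 at 1.84 ± 0.33 and Ifit2 at 0.88 ± 0.10. The called genes were thus not simply the largest, since Rsad2 had a large change with a large error and Ifi35 a small one with a small error. DESeq2 without the block called no member, against 2.79% of 15419 genes with an adjusted p and 1.08% in the higher direction. It gave no adjusted p for Ifit1, Ifit3, Mx1, Mx2 and Rsad2, so these could not be called there.

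Every siPKM2 library above every siNC library was seen for no member, against 12% of all genes. The siPKM2 library above the siNC library of its number in all 3 pairs was seen for 10 of 10, against 30.5% of all genes. Since the members were chosen on this contrast, these counts describe them and carry no support.

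**Figure D3:**
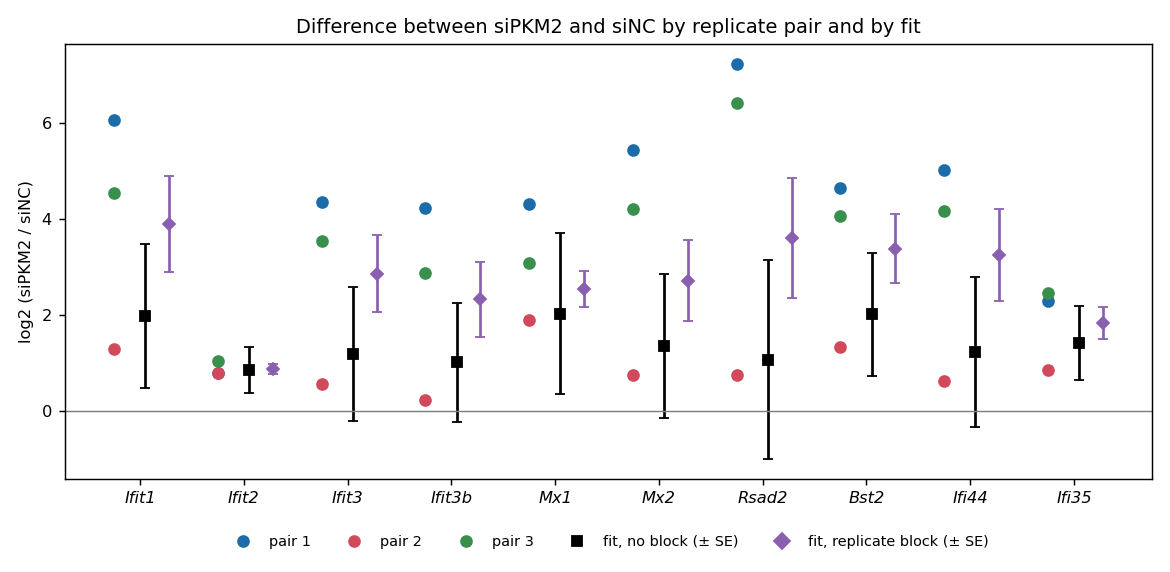
Log2 of siPKM2 over siNC for each of the 10 genes: coloured points are the 3 pairs, black squares the fit without the block and purple diamonds the fit with the replicate block, with bars of 1 SE. The red points of pair 2 lie lowest for every gene, and the fit with the block has the shorter bars, from 0.10 for Ifit2 to 1.25 for Rsad2.

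The group difference turned on single libraries. Leaving out siNC 2 raised the members' median log2 fold change to 5.27, and leaving out siPKM2 2 lowered it to 0.44, where Mx1 (-0.20) and Rsad2 (-0.65) changed sign. Without both replicate 2 libraries the median was 4.15 and 8 of 10 members were called, against 3.34% of all genes in that fit. Leaving out siNC 1 or siNC 3 gave 0.76 in either case.

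**Figure D4:**
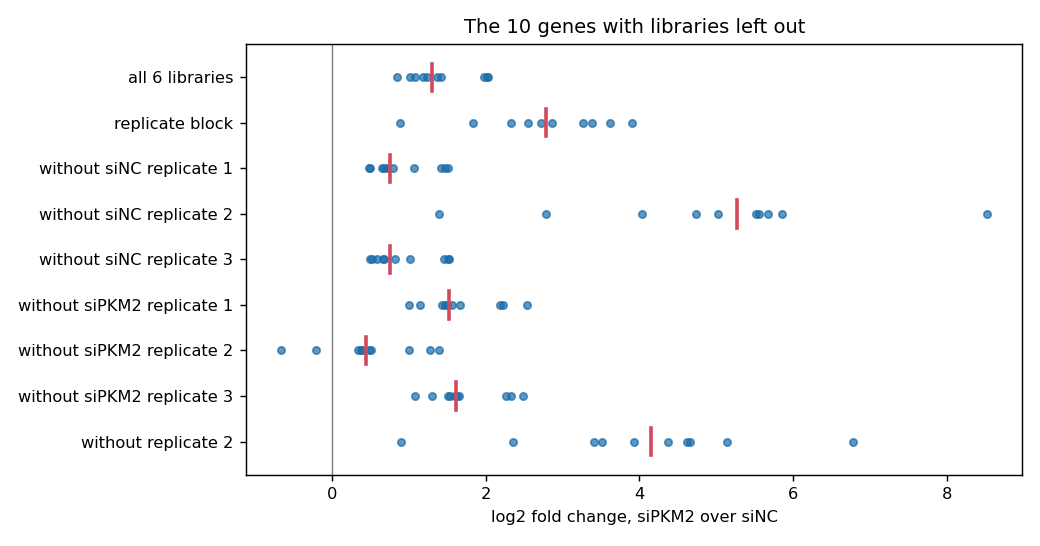
Log2 fold change of each of the 10 genes (points) and their median (red line), by the libraries that entered the fit. The median moves from 1.30 with all 6 libraries to 5.27 without siNC replicate 2 and to 0.44 without siPKM2 replicate 2.

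Interferon pathway genes around the effectors were read from lists made with earlier results of these data known. Of 11 interferon genes none had enough counts for the test, and 9 had no count in any library. A count of 0 allows up to 3 counts, which is 0.117 to 0.134 CPM per library before the TMM factors. Ifnb1, the interferon made first by most cells, had 5 counts in siNC 2 and 28 in siPKM2 2 and none in the other 4 libraries. Ifna4 had 1 count, in siPKM2 2. Interferon transcripts were thus seen in the replicate 2 libraries only, at counts too low to compare. Of the receptor genes 0 of 6 were called, with and without the block, with a median log2 fold change of 0.05. Ifnar1, a chain of the type I receptor, had 75.4, 79.7 and 84.9 CPM in siNC and 71.2, 82.2 and 78.2 CPM in siPKM2. Ifnar2, the other chain, was highest in both replicate 2 libraries, with 44.6, 110 and 51.2 CPM in siNC and 45.1, 137 and 54.8 CPM in siPKM2.

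Of 13 transducers and factors tested, 12 had a positive log2 fold change, none was called without the block, and 3 were called higher with it, against 2.65% of all genes. Among them Irf9, the DNA-binding part of the complex that reads the response element, had a log2 fold change with the block of 1.54 ± 0.41 (adjusted p = 0.0484, edgeR's quasi-likelihood test). It stood at 14.5, 74.5 and 18.7 CPM in siNC and at 75.2, 93.1 and 72.1 CPM in siPKM2. The siNC 2 library lay between siPKM2 3 and siPKM2 1, so the groups overlapped. Irf7, a factor that amplifies interferon production, had 3.12, 284 and 4.25 CPM in siNC and 80.9, 414 and 60.8 CPM in siPKM2. Its log2 fold change with the block was 2.95 ± 0.88 and it was not called (adjusted p = 0.0648, edgeR).

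Relatives and chromosomal neighbours of the effectors split. Cmpk2, a nucleotide kinase 12751 bases from Rsad2, had 0.480, 14.7 and 1.49 CPM in siNC and 18.97, 74.7 and 13.9 CPM in siPKM2. Without the block its log2 fold change was 2.69 ± 1.29 and edgeR did not call it (adjusted p = 0.341), while with the block it was 3.26 ± 0.49 and called (adjusted p = 0.0161). Ifit1bl1, Nmi and Ifitm3 were also called higher with the block, 4 of 7 tested against 2.65% of all genes. Without the block edgeR called none of the 7 and DESeq2 called 1. Ifitm1, an interferon-induced membrane protein, had a log2 fold change of 0.04 ± 1.34 without the block and -0.15 ± 0.31 with it. Ifit1bl2, whose 5′ end lies 127 bases from that of Ifit1 on the other strand, had 0.57 ± 0.75 without the block. The 2 annotated genes do not overlap, but their coding sequences share a run of 180 identical bases. In 4 of 6 libraries their estimated counts held a fraction, and in 3 of those 4 the sum was whole. Reads of the 2 genes may therefore not be fully separated. Whether reads were counted by strand was not given in the sources used here. Ifi44l, 8776 bases from Ifi44, had 1 count in all.

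For the other lists too, the share of all genes called higher with the block was 2.65%. With the block, 12 of 22 other antiviral effectors were called higher. Over all 22, the log2 fold change without the block ran from -0.36 for Ifi27, which was not called in either fit, to 2.01 for Parp14. Oligoadenylate synthetases make the small messenger that activates RNase L, which degrades RNA. Of these 9 genes, 3 were called higher with the block, with Oasl1 at 2.75 and Oas1c at -1.15 without it. The list named for ISG15, a ubiquitin-like modifier that is attached to proteins, had 3 of 6 called higher. These were the conjugating enzyme Ube2l6, the ligase Herc6 and Trex1, a DNA exonuclease that is not part of that conjugation. Isg15 itself and Uba7 were not called, with log2 fold changes without the block of 1.80 and 0.34. Nucleic acid sensors and adaptors had 5 of 12 called higher, with Zbp1 at 1.55 and Ikbke at -0.52. None of these 4 lists had a gene called lower, and none had a gene called without the block by edgeR or DESeq2.

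**Figure D5:**
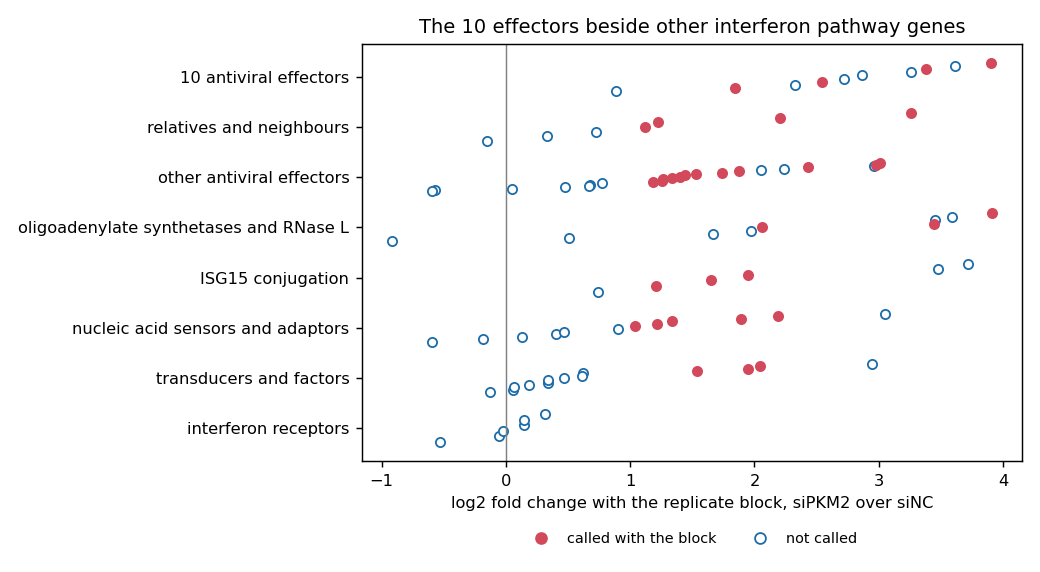
Log2 fold change with the replicate block for each tested gene of the 10 effectors and of the pathway lists, filled red where called and open blue where not. The receptors sit around 0, and the 10 effectors run from 0.88 for Ifit2 to 3.91 for Ifit1.

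Genes of inflammation, taken as a sum, moved with the replicate number in another way. The summed level of 15 inflammatory genes, led by Lcn2, was 42.7, 11640 and 74.8 CPM in siNC and 215, 12030 and 209 CPM in siPKM2. In siPKM2 1 and 3 that sum was 1.85% and 1.79% of the siNC 2 level, while the summed CPM of the 10 effectors was 67.6% and 53.2% of it. The effector sum was 1.86-fold higher in siPKM2 2 than in siNC 2, and the inflammatory sum 1.03-fold. The sum was carried by a few abundant genes, and members of the list differed. Within pairs 1, 2 and 3 the folds were 9.98, 1.14 and 8.32 for Ptgs2, with the effectors' shape. Cxcl10 (8.03, 2.93 and 7.28) and Il6 (50.1, 2.49 and 17.4, with only 3 counts in siNC 1) had that shape too. Cxcl5 (0.634, 0.773 and 1.02) and Ccl5 (1.55, 0.88 and 1.07) did not. With the block 3 of the 10 tested were called higher, against 2.65% of all genes. These were Cxcl10, Il6 and Cxcl1, named here after their values were seen. Cxcl10, a chemokine that interferon also induces, had 1.52, 112 and 1.88 CPM in siNC and 12.2, 329 and 13.7 CPM in siPKM2. Its log2 fold change with the block was 2.30 ± 0.31 (edgeR, adjusted p = 0.0141), and Il6 had 2.62 ± 0.66 (0.0426). Lcn2 had 12.4, 4711 and 19.8 CPM in siNC and 22.1, 5526 and 43.8 CPM in siPKM2, and was not called. The part of these genes in the effector levels was not tested.

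Other cell types were read from their markers. The summed level of 14 macrophage markers was 10.5, 77.8 and 10.9 CPM in siNC and 21.7, 63.7 and 15.0 CPM in siPKM2, with Cd68 the most abundant by mean. Like the effectors, it was high in both replicate 2 libraries and higher in siPKM2 1 and 3 than in siNC 1 and 3. That shape came from Cd68 and Cd14. Lyz2 had 2.60, 3.32 and 3.63 CPM in siNC and 2.005, 3.07 and 3.61 CPM in siPKM2. Adgre1, Itgam, Ptprc, C1qa, C1qb, C1qc, Tyrobp, Fcer1g and Cx3cr1 had at most 10 counts in any library. Of the 5 macrophage markers tested, Cd14 was called higher with the block, against 2.65% of all genes. The part of these markers in the effector levels was not tested. Plasmacytoid dendritic cell markers summed to between 1.24 and 2.68 CPM and lymphocyte markers to between 0.117 and 0.405 CPM, with Cd3e and Nkg7 among those at 0 in every library. Endothelial markers summed to between 1.53 and 4.37 CPM. Osteoblast markers, led by Ibsp, ran from 77.1 to 482 CPM and fibroblast markers, led by Col1a2, from 7504 to 16960 CPM, with overlapping groups in both. With the block 2 of 8 fibroblast markers were called higher, against 2.65% of all genes. These were Dcn at a log2 fold change of 1.28 ± 0.18 and Pdpn at 1.19 ± 0.24. Of 6 osteoblast markers tested, Ibsp was called lower at -1.45 ± 0.30, against 5.83% of all genes called in either direction. None of these markers was called without the block, and their part in the effector levels was not tested.

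Outside the set, the tested genes whose log2 CPM over the 6 libraries was most like the mean profile of the 10 were Dhx58, Herc6, Trim25, Ifih1, Zc3hav1, Sbds, Mlkl, Ddx60, Tmem106a and Dagla, with Pearson r from 0.996 to 1 after rounding. Dhx58, an RNA helicase related to the sensor RIG-I, had 3.76, 58.3 and 4.33 CPM in siNC and 34.2, 99.5 and 32.0 CPM in siPKM2. The members themselves correlated with that profile at 0.93 (Mx1) to 0.997 (Mx2). Over only 6 libraries in 3 pairs, this likeness is a description.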

How the data were processed

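RNA-seq of 3 siNC and 3 siPKM2 libraries was read from the deposited table and per-library files. The deposited estimated counts per gene, some fractional, were not normalized, and the TPM values were scaled by the authors within each library and were equal in both places. Aligner and counter were not given in the sources used here. The submitters' processing notes name mm9 and edgeR without a role. The deposited fold change (a ratio), log2 fold change, p-value and adjusted p-value of the authors' own comparison, and their mean TPM, were not used.

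Rounded counts entered edgeR 4.0.16 under R 4.3.3 (filterByExpr, TMM, quasi-likelihood test, Benjamini-Hochberg adjustment over all genes) and, as an alternative, DESeq2 1.42.0. The test was checked on simulated data with small replicate effects and an equal fold in every pair. The members had larger replicate effects and uneven folds, so that check does not cover them. Total counts of 22317065 to 25691096 limit precision only for genes of a few counts. Within each group no 2 libraries were duplicates, since 53.7% to 73.9% of genes differed beyond counting noise. Same-numbered libraries deviated together (correlations 0.664, 0.756 and 0.646, against at most 0.158 for other pairs), so replicate numbers were taken to pair them. Alternatives were RLE factors, other filters, no fold threshold, libraries left out, log2(TPM + 1) and log2(TPM + 0.1) differences, and the replicate block. The block with other changes, and summed near-identical genes, were chosen after seeing the data. Members, lists and tests were chosen with earlier results of these data known. By rule, named genes were the 10 members, Pkm, the signalling lists and neighbours, the extremes of other lists, the leading and the absent markers, and the 10 genes most like the members. Further genes of the inflammatory, marker and ISG15 lists were named outside this rule, with their values known. Positions are from GENCODE M21 on GRCm38, which held 52083 of the identifiers, and promoters from RefSeq.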

Additional observations from a re-analysis of the deposited data

How the results depend on the processing

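Of 163 settings run on single members, 161 gave a positive log2 fold change, and the exceptions were Mx1 (-0.20) and Rsad2 (-0.65) without siPKM2 replicate 2. Without siNC replicate 2 these genes stood at 5.67 and 8.52. The median of the 10 members was 1.30 and ran from 0.44 (without siPKM2 replicate 2) to 5.27 (without siNC replicate 2) when 1 library was left out. It was 4.15 without both replicate 2 libraries, where 507 genes (3.34% of those tested), 8 members and 37 pathway genes were called. Leaving out 1 library gave 0 to 105 called genes (at most 0.674% of those tested), 0 to 1 called members and 0 to 8 called pathway genes. The upper values came without siNC replicate 2. DESeq2 called 430 genes and 1 pathway gene, no filter gave 9 genes, and at least 10 counts in every library gave 3 genes and dropped Mx1, Mx2 and Rsad2. Near-identical genes summed gave a median of 1.33. Differences of group means gave 2.48 for log2(TPM + 1) and 2.95 for log2(TPM + 0.1), values with no test.

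With the replicate block, which uses the pairing by number, 890 genes (5.83% of those tested), 4 members and 30 pathway genes were called. The median was 2.79. Without a fold threshold the block gave 3524 genes (23.1%), 5 members and 38 pathway genes. Without replicate 2 it gave 1639 genes (10.8%), 9 members, 43 pathway genes and a median of 4.14. With near-identical genes summed it gave 893 genes (5.85%), 4 of 8 members and a median of 3.03. The causes of these shifts were not tested. Low counts limit Mx1, Mx2 and Rsad2 in siNC 1 and 3, and 3 pairs limit the rest.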
